A study of Homo sapiens with 2 samples.

Results

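The genes described here encode the subunits of the proteasome, together with its activators, its inhibitor and its assembly chaperones. They were chosen by symbol, as all genes whose names run from PSMA to PSMG followed by a number. Of 48 such protein-coding genes in the RefSeq annotation of GRCh38.p14, 42 had an array probe set annotated to that gene alone, out of 19775 genes with such a probe set in all. The other members, PSMA6, PSMB11, PSMC5, PSMD7, PSMD13 and PSME2, were not analysed here. RNA of K562 cells, an established human leukaemia line that carries the BCR-ABL fusion, was measured on 2 Affymetrix arrays. The cells of the vector array carried the empty retroviral vector pMSCV, and those of the PML4 array a retrovirus for overexpression of PML4, an isoform of the promyelocytic leukaemia protein. Both cultures had been selected with G418 for 3 weeks. Each group holds 1 array, so the differences given compare these 2 arrays only, with no replicate error and no test.

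The proteasome is the protease that degrades ubiquitin-tagged proteins in the cytosol and nucleus. Its core is a barrel of stacked rings of alpha and beta subunits, the inner beta rings carrying the active sites. A cap of ATPases and non-ATPases binds ubiquitin chains, unfolds the substrate and feeds it into the barrel. In blood cells and under interferon, the catalytic beta subunits are replaced by PSMB8, PSMB9 and PSMB10 to form the immunoproteasome, which alters the peptides cut for display on MHC class I. Dedicated chaperones build the core and the base of the cap, and separate activators can open the barrel in place of the cap.

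Signals are the deposited MAS5 intensities, which summarise the probes of a probe set on a linear scale. The floor was the median human probe set over both arrays, a signal of 72.4, and a probe set above it on at least 1 array counted as measured. A gene took its brightest measured probe set, and differences are log2 PML4 minus log2 control vector. Of the 42 members 41 were measured, all above the floor on both arrays. PSMA8, the testis form of an alpha subunit, was at 24.8 with the vector and 20.4 with PML4, under the floor on both. Different probe sets of 1 gene, both above the floor on each array, differed in this value by a median of 0.29 over all genes and 0.31 over the members, and these figures serve below as the only available measure of error. Error between arrays or between cultures is not part of them.

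The overexpressed gene was read by 10 probe sets, of which 5 were higher and 4 lower on the PML4 array. Among the 4, 211588_s_at and 239582_at were above the floor with the vector only, which fixes their direction. The brightest PML probe set, 211013_x_at, was at 216.3 with the vector and 1386.8 with PML4. The probe set 206503_x_at ran the other way, from 927.2 to 156.5. Of 8 erythroid markers 6 were read by a probe set for that gene alone, and all 6 were measured, 5 higher and 1 lower with PML4. GATA1 was at 2333.2 and 2821.9 with vector and PML4, 1.21-fold higher, and KLF1 was close to level at 3062.8 and 3196.4. The second probe set of GATA1 differed by -0.52, against 0.27 for its gene value. HBZ was 3.90-fold, TFRC 1.80-fold and HBE1 1.36-fold higher, and EPOR was 2.08-fold lower. The direction of EPOR depended on the probe set, with its 4 measured ones from -1.06 to 0.81. The 6 summed to 43286.8 with the vector and 68042.4 with PML4, and the part of this shift in the values below was not tested. Of 15 markers of T cells, B cells, monocytes, fibroblasts and epithelium, 13 were read in this way, and 6 of these lay under the floor on both arrays. The brightest of the 7 measured were EPCAM at 5870.4 and 6203.1 and LYZ at 3206.4 and 3134.6. Of these 7, EPCAM was higher and the other 6 lower with PML4, among them COL1A1 at -0.50, with CD3E, CSF1R and DCN above the floor with the vector only. The sum of the 7, carried mostly by EPCAM and LYZ, was 9977.4 with the vector and 9941.7 with PML4.

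Proteasome genes were nearly level between the arrays, apart from the immunoproteasome genes PSMB8 and PSMB9, which were lower with PML4, and a few smaller differences. None of the 41 measured members differed by at least 2-fold, against 4.43% of all 12541 measured genes; a list of this length would hold very few genes at that share. One member, PSMB9, was at least 1.5-fold lower, where 11.8% of all genes were, and no member was at least 1.5-fold higher, where 5.7% of all genes were. The members lay closer to 0 than the genes at large: 35 of 41 differed by less than 1.2-fold, compared with 50.2% of all genes. Most members are bright, 37 of 41 lying in the brightest 25% of genes, where 62.8% of genes differed by less than 1.2-fold. Large differences were also rarer there. Of these 3136 genes, 16 were at least 2-fold higher and 22 at least 2-fold lower. At 1.5-fold, 126 of them were higher and 111 lower. The median size of the difference, without its sign, was 0.11 among members, 0.20 in the brightest 25% and 0.26 among all genes. In direction 26 members were higher and 15 lower, while 44.7% of all genes were higher and 55.3% lower. In the brightest 25% the balance also leaned to higher, with 1774 of 3136 genes higher and 1362 lower. The members' median difference was 0.05, as it was in the brightest 25%, and that of all genes was -0.05.

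**Figure D1:**
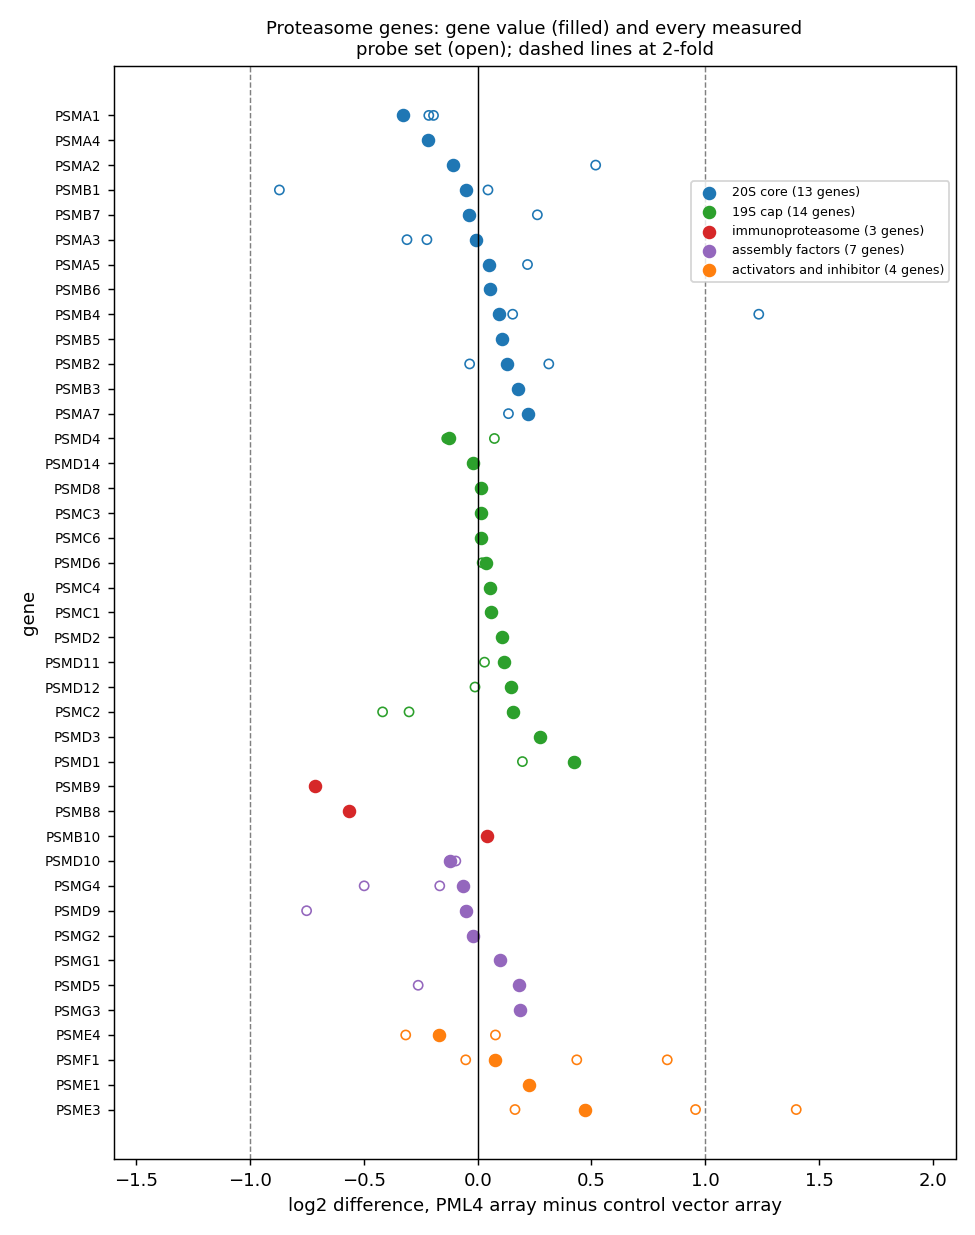
Log2 difference between the PML4 and control vector arrays (x axis) for each measured proteasome gene (y axis), coloured by group; filled points are the gene value and open points its other measured probe sets. All 41 filled points lie between the dashed lines at 2-fold, PSMB9 is lowest at -0.72, and only single probe sets of PSMB4 and PSME3 lie beyond a line.

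The alpha subunits of the core form its outer rings and gate the entry to the barrel. PSMA1 had the largest difference among them, at 14845.5 with the vector and 11817.9 with PML4, or 1.26-fold lower. Its other probe sets, at 12688.5 and 11090.8 and at 11899.5 and 10253.3, were also lower with PML4. PSMA4 was at 15823.4 and 13587.9, 1.16-fold lower, on its only probe set. At the other end PSMA7 was at 8747.0 and 10205.8, 1.17-fold higher, and its dimmer probe set was at 2442.5 and 2682.6. Alpha subunits therefore did not move one way: of the 6 measured 2 were higher and 4 lower, with a median of -0.06.

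The beta subunits include the constitutive active sites. PSMB5, which carries the chymotrypsin-like activity, was at 4554.5 and 4908.8 with vector and PML4. PSMB6, the caspase-like subunit, was at 3570.3 and 3702.7. PSMB7, the trypsin-like subunit, was at 10184.3 and 9903.9, with a dim second probe set at 155.0 and 185.9. All catalytic core subunits thus lay within 1.08-fold between the arrays. Among the structural beta subunits PSMB3 had the largest difference, at 9552.6 and 10803.8, or 1.13-fold higher.

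PSMB4, a structural beta subunit, had probe sets that disagreed by more than 2-fold. Its brightest probe set, 202244_at, was at 11112.0 and 11845.9, and the next, 202243_s_at, at 8194.6 and 9116.5. The dim probe set 228204_at was at 212.2 with the vector and 499.6 with PML4, 2.35-fold higher. The gene value of PSMB4 was 0.09, and the mean of its probe sets 0.49. Dim probe sets also stood apart for PSMB1 and PSMA2, named here after their values were seen. PSMB1 was at 24148.1 and 23307.4 on its brightest probe set and at 298.4 and 163.1 on its dimmest. PSMA2 was at 12658.9 and 11745.7 on one probe set and at 1141.6 and 1635.4 on the other. The remaining core genes, PSMA3, PSMA5 and PSMB2, had gene values between -0.01 and 0.13. Over the 13 measured core genes, 7 were higher and 6 lower, with a median of 0.05, which stayed above 0 under each scaling tried.

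The cap genes showed a like picture. All 5 measured ATPases, the motor ring of the cap, had gene values higher with PML4 by small amounts, between 0.01 and 0.15. Each was below the 0.29 that separates probe sets of 1 gene. The dimmer probe sets of the highest, PSMC2, were lower with PML4, at -0.30 and -0.42. The other ATPases are each read by 1 probe set. Among the 9 measured non-ATPases, PSMD1, a large scaffold subunit to which the ubiquitin receptor ADRM1 binds, had the largest difference. It was at 4006.9 with the vector and 5373.0 with PML4, 1.34-fold higher, and its second probe set was at 3948.1 and 4524.5. PSMD3, a scaffold subunit of the lid, was at 1952.3 and 2361.3, 1.21-fold higher. The lowest values belonged to PSMD4, an intrinsic ubiquitin receptor, and PSMD14, the deubiquitinase of the lid. PSMD4 was at 5514.4 and 5050.4 on its brightest probe set, at 4121.0 and 4336.4 on the next and at 3638.0 and 3310.8 on the dimmest measured. PSMD14 was at 6536.3 and 6441.2. Among the gene values of the cap, only the 1.34-fold difference of PSMD1 exceeded the gap between probe sets. Its second probe set differed by 0.20, under that gap. Of the 14 measured cap genes 12 were higher and 2 lower, where 1774 of 3136 genes in the brightest 25% were higher. The median of the cap genes, 0.06, differed from that of the core by 0.01. The cap median was 0.01 with quantile normalization and likewise with loess.

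**Figure D2:**
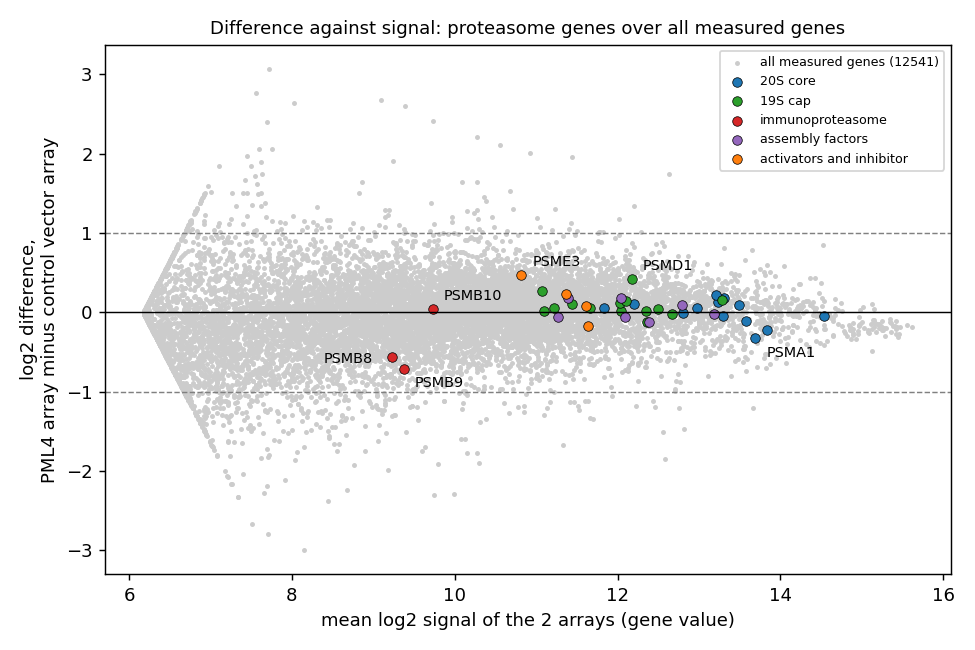
Log2 difference between the PML4 and control vector arrays (y axis) against the mean log2 signal of the arrays (x axis), with all 12541 measured genes in grey and proteasome genes coloured by group. Most proteasome genes sit at the bright end close to 0, and PSMB8 and PSMB9 lie at lower signal below the others, at -0.56 and -0.72.

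The immunoproteasome subunits split. PSMB9, the interferon-inducible counterpart of PSMB6, was at 850.3 with the vector and 517.4 with PML4, 1.64-fold lower. PSMB8, the counterpart of PSMB5, was at 729.4 and 493.2, 1.48-fold lower. PSMB10, the counterpart of PSMB7, was at 839.1 and 864.4, 1.03-fold higher. Both lower differences were larger than the gap between probe sets of 1 gene, but each of these genes is read by 1 probe set, so that gap could not be measured for them. Among all genes, 8.01% had a more negative difference than PSMB9 and 12.6% a more negative one than PSMB8. The group's median was -0.56, and its difference from that of the core was -0.62. That median was below 0 under each alternative tried, the nearest being -0.34 with the endings _x_at and _s_at barred, a setting that leaves PSMB8 without a value. In a bulk sample, fewer cells expressing a gene and less RNA per cell cannot be told apart.

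Set against its constitutive counterpart, PSMB9 differed by -0.77 from PSMB6 and PSMB8 by -0.67 from PSMB5. PSMB10 differed by 0.08 from PSMB7, and this value was -0.07 with the mean of probe sets. These values are differences between 2 differences, each taken within a probe set, and do not compare the levels of the genes. The immunoproteasome genes are also dimmer than the core genes on this array, and dim probe sets differed more between the arrays. Among member probe sets with a mean signal of 2000 and over, 47 in all, the median size of the difference was 0.11 and none reached 1.5-fold. Among the 12 with a mean signal from 500 to 2000, PSMB8, PSMB9 and PSMB10 among them, it was 0.37. All measured probe sets in this range had a median of 0.24. Among the 17 under 500 it was 0.31, and 2 of them differed by at least 2-fold, against 6.51% of all measured probe sets in this range and 4.52% of those of any signal. The part of signal level in the values of PSMB8 and PSMB9 was not tested.

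PSMB8 and PSMB9 lie in the MHC region next to the genes of the peptide transporter, in the order TAP2, PSMB8, TAP1, PSMB9 among protein-coding genes in RefSeq. TAP1 and TAP2 encode the chains that carry peptides made by the proteasome into the endoplasmic reticulum. TAP1 was at 448.2 with the vector and 360.9 with PML4, 1.24-fold lower, and TAP2 at 1239.4 and 815.4, 1.52-fold lower, with all 3 of its measured probe sets lower. All 4 genes of the run were therefore lower with PML4, as were 55.3% of all measured genes. The TAP1 difference of -0.31, on 1 probe set, is close to the 0.29 that separates probe sets of 1 gene. Values of HLA-DOB, HLA-DMB and HLA-DMA, which flank the run, are not given here. PSMB10 lies on chromosome 16.

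The start regions of these genes are shown because PSMB9 and TAP1 start back to back and because an interferon-type motif is known in immunoproteasome promoters. Each line gives 150 bases before and 10 bases after the RefSeq start site on GRCh38.p14, on the strand of the gene, with capitals for matches to a motif of GAAA, 2 bases of any kind and GAAA again, or to its reverse complement, in which TTTC takes the place of GAAA. The stretches are chr6:32844038-32844197 on the minus strand for PSMB8, chr6:32854042-32854201 on the plus strand for PSMB9, chr16:67936841-67937000 on the minus strand for PSMB10 and chr6:32853695-32853854 on the minus strand for TAP1.
PSMB8: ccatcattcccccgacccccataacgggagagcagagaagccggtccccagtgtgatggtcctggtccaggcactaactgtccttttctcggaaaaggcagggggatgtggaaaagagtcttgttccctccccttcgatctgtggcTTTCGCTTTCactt
PSMB9: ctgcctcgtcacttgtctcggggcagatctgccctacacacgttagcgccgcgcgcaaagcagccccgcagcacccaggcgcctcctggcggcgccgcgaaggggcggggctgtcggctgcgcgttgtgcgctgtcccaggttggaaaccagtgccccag
PSMB10: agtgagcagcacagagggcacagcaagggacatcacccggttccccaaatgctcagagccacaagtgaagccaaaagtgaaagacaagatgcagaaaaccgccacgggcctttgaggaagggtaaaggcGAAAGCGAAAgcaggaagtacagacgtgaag
TAP1: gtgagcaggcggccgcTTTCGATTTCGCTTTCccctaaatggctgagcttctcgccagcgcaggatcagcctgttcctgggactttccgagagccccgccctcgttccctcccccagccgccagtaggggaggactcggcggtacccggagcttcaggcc
The motif stands for the core of the interferon-stimulated response element, the site read by IRF factors. PSMB8 and TAP1 each have 2 RefSeq start sites with a window in the table, of which 1 holds a match and is the one shown. The capitals in TAP1 are 2 overlapping matches. No match lies in the window of PSMB9, whose start site is 488 bases from the TAP1 start site shown, on the opposite strand. The TAP1 matches lie between these start sites, farther from the PSMB9 start than the 250 bases searched before it. Over windows of 300 bases, 250 before and 50 after the start, the motif on either strand was found in 3.57% of 35116 RefSeq windows. Among measured members 35 had a window, 42 windows in all, and the motif lay in 6 of these windows, or 14.3%: those of PSMA4, PSMB4, PSMB8, PSMB10, PSME1 and PSMG4. Genes with a match lay on both sides of 0, from -0.56 for PSMB8 to 0.23 for PSME1. The measured members PSMA7, PSMB1, PSMB6, PSMB7, PSMD4 and PSMG3 had no entry in that table.

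**Figure D3:**
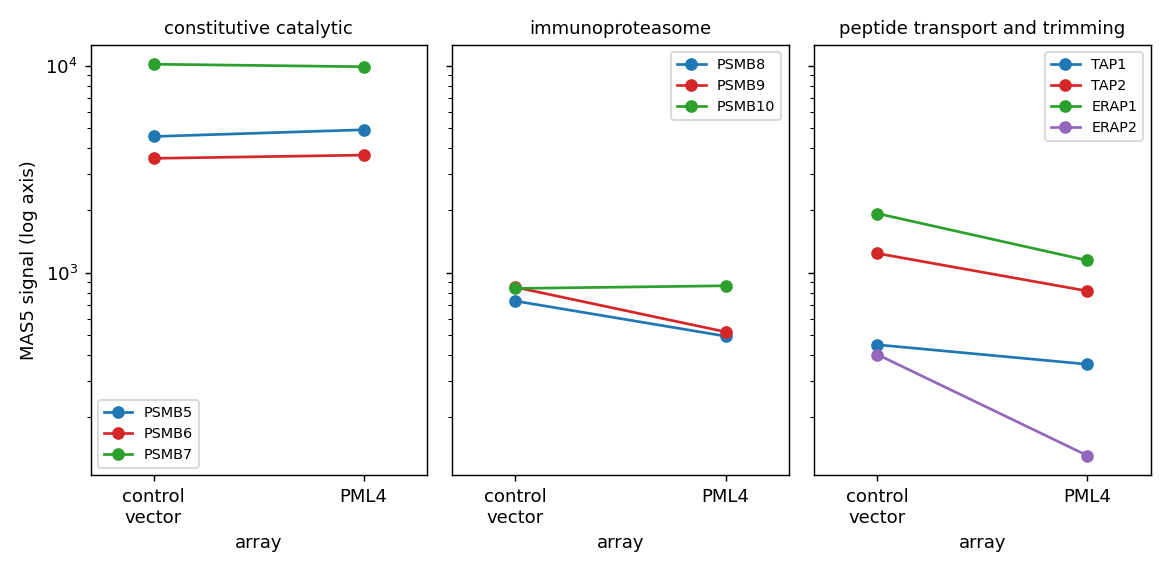
MAS5 signal (y axis, log scale) on the control vector and PML4 arrays (x axis) for the constitutive catalytic subunits, the immunoproteasome subunits and genes of peptide transport and trimming; lines join the values of 1 gene and the heights of different genes are not comparable. The lines of PSMB5, PSMB6, PSMB7 and PSMB10 are nearly flat, and those of PSMB8, PSMB9, TAP1, TAP2, ERAP1 and ERAP2 slope down.

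The assembly factors were level. PSMG1 and PSMG2, which pair to seed the alpha ring, were at 6826.7 and 7303.0 and at 9349.6 and 9220.5 with vector and PML4. PSMG3 and PSMG4, which form the other chaperone pair of the ring, were at 2520.8 and 2869.0 and at 4458.1 and 4269.6. None of these gene values passed 1.14-fold. Of the dimmer probe sets of PSMG4, one was at 443.3 and 313.7 and another at 325.4 and 289.9.

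The chaperones of the cap base, PSMD5, PSMD9 and PSMD10, leave once the cap is complete. PSMD5 was at 3967.5 and 4502.8 and, on its dimmer probe set, at 610.4 and 509.2. PSMD9 was at 2515.4 and 2425.4 on its brightest probe set and at 286.1 and 169.9 on the other, 1.68-fold lower. PSMD10, also known as gankyrin, was at 5589.7 and 5132.6, and its second probe set was at 2772.9 and 2594.3. All 7 assembly factors lay within 1.2-fold. Their median was -0.02, which became 0.03 after centring on the median gene and 0.04 once probe sets were dropped for ending in _x_at or _s_at.

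Among the activators PSME3 had the largest difference. It encodes the nuclear activator PA28 gamma, which opens the core without ATP or ubiquitin. Its brightest probe set, 209852_x_at, was at 1533.6 with the vector and 2127.1 with PML4, 1.39-fold higher. The probe set 200988_s_at was at 268.4 and 708.3, 2.64-fold higher, and 209853_s_at was at 349.9 and 679.5, 1.94-fold higher. The last, 200987_x_at, was at 635.5 and 712.0, 1.12-fold higher. All 4 probe sets were thus higher with PML4, but their differences spanned 1.24 on the log2 scale, and their mean was 0.75, past 1.5-fold. All of them end in _x_at or _s_at, endings that Affymetrix gives to probe sets that may read more than 1 transcript.

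PSME1, the alpha chain of the interferon-inducible activator PA28, was at 2436.8 and 2849.2, 1.17-fold higher, in the direction opposite to PSMB8 and PSMB9. PSME4, the nuclear activator PA200, was at 3369.9 and 2991.1, 1.13-fold lower. Its second probe set was at 1830.3 and 1470.0 and its dimmest at 196.0 and 206.9. PSMF1, the inhibitor PI31, was at 3049.6 and 3211.6 on its brightest probe set and at 1208.0 and 1633.7 on the next. Its dim probe sets were at 218.1 and 210.3 and at 138.7 and 247.1. The inhibitor's value thus depended on the probe set, from -0.05 to 0.83. The median of these 4 genes was 0.15, but -0.05 when the endings _x_at and _s_at were barred, a setting that leaves PSME3 without a value.

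Probe sets of a member did not always agree, with a median gap of 0.31 that was close to the 0.29 over all genes. The members hold 81 probe sets annotated to 1 gene, of which 76 were measured, 74 of these on both arrays. Another 5 probe sets are annotated to a member and a second gene and were not used. Of 22 members with several measured probe sets, 12 had these all on the same side of 0. In 21 of the 22, several were above the floor on both arrays. The exception, PSMD6, counts among the 12 through a probe set at 48.5 and 73.4, above the floor with PML4 only. A PSMA3 probe set at 89.8 and 55.8 was above it with the vector only. The direction of such probe sets is fixed by the floor, and the share over all genes was not computed. The cap ATPase PSMC2, named after its values were seen, is an example of disagreement. It was at 9481.1 and 10545.8 on its brightest probe set, at 1393.8 and 1130.8 on the next and at 638.6 and 478.0 on the dimmest.

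Genes that work beside the proteasome were read from 4 lists. Of 11 partners of the particle, all were measured, 8 higher and 3 lower, with a median of 0.12. TXNL1, a thioredoxin-like protein that binds the cap, was at 4466.4 and 6808.2, 1.52-fold higher, although the lowest of its 3 measured probe sets was at -0.04. AKIRIN2, which brings the proteasome into the nucleus, was at 2241.3 and 3406.0, also 1.52-fold higher, and the mean of its 3 probe sets was 0.31. No partner was at least 1.5-fold lower. The lowest was PAAF1, a chaperone of the cap base, at 1988.1 and 1514.6, 1.31-fold lower, with its other probe set at -0.83. ECPAS, which holds cap and core together, was at 2966.2 and 2596.1, with all 4 of its probe sets lower. POMP, the maturation factor of the core, was at 11029.8 and 11759.1, and its second probe set differed by -0.61. The deubiquitinase USP14 was at 5330.8 and 6367.0 and the deubiquitinase UCHL5 at 4534.6 and 5435.1, and the ubiquitin receptor ADRM1 was at 2027.6 and 2207.3.

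Regulators of subunit transcription were close to level in their gene values. NFE2L1, the factor that raises subunit genes when the proteasome is impaired, was at 3653.3 with the vector and 3430.8 with PML4, and its lowest probe set differed by -0.89. NFE2L2, a related factor of the oxidative stress response, was at 7885.6 and 8391.5, with its other probe set at 0.67. None of the 4 measured of 5 listed genes passed 1.5-fold in its gene value, and their median was 0.04. The core of the antioxidant response element bound by these factors, searched as TGACNNNGC on either strand, was found in 13 of the 42 member windows, or 31.0%, and in 13.3% of all windows. The core of the ETS motif, searched as CGGAAG on either strand, was found in 22 of them, or 52.4%, and in 19.5% of all windows. These are letter matches, and binding was not measured.

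Ubiquitin and shuttle genes were close to level in their gene values. Of 11 listed 7 were measured, 3 higher and 4 lower, with a median of -0.03, and none passed 1.5-fold. UBB, a polyubiquitin gene, was at 33807.0 and 30567.1, and the shuttle gene UBQLN1 was at 5443.4 and 5113.6, with its highest probe set at 0.39. RAD23B, a shuttle that carries ubiquitin chains to the cap, was at 3945.3 and 4745.6, with its highest probe set at 1.11.

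Genes downstream of the immunoproteasome in antigen processing held the larger differences. Of 9 listed 7 were measured, 2 higher and 5 lower, with a median of -0.31. ERAP2, which trims peptides in the endoplasmic reticulum, was at 401.9 and 130.5, 3.08-fold lower. Its relative ERAP1 was at 1931.5 and 1146.0, 1.69-fold lower, with probe sets from -1.82 to 0.05. B2M, the light chain of MHC class I, was at 27579.2 and 27907.8, and TAPBP, which loads peptides, at 2757.0 and 2729.5. IRF1, a transcription factor that induces PSMB9 and TAP1 in interferon-treated cells, was at 595.2 and 633.2. Lower signals were thus seen in the transport and trimming genes TAP1, TAP2, ERAP1 and ERAP2, but not in B2M or IRF1. NLRC5 was under the floor on both arrays.

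**Figure D4:**
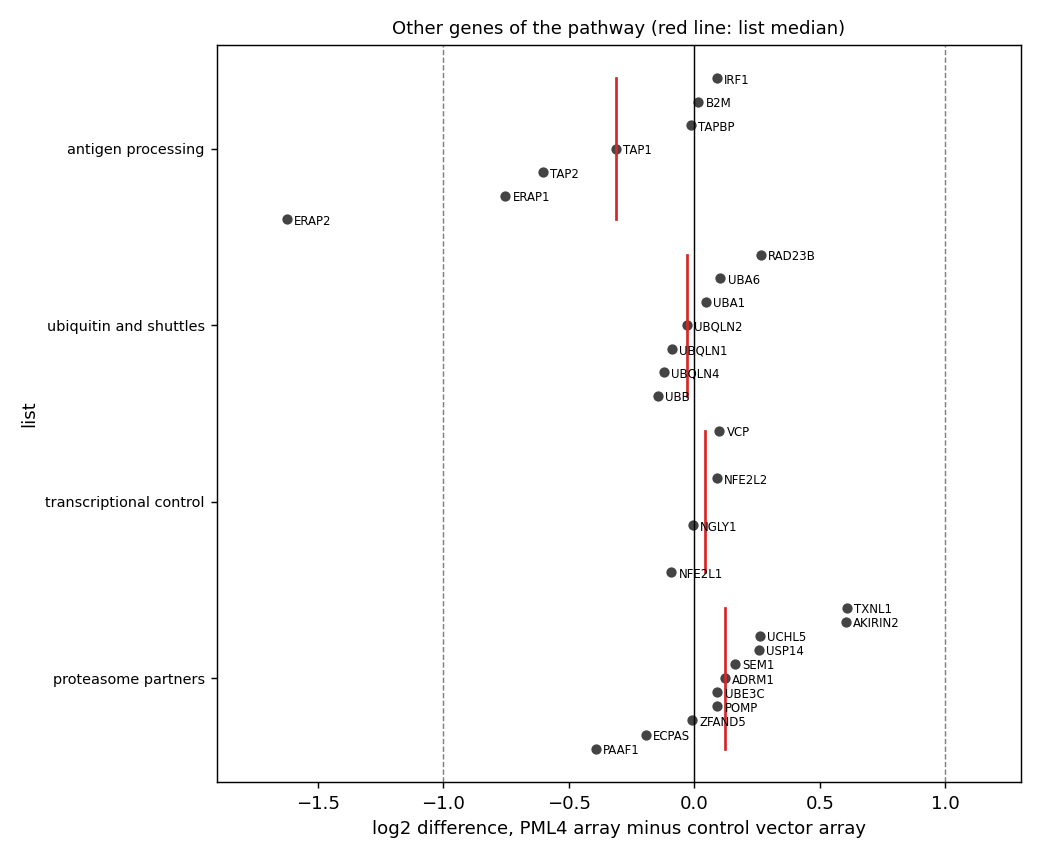
Log2 difference between the PML4 and control vector arrays (x axis) for each measured gene of the 4 other lists (y axis), with the list median as a red line and dashed lines at 2-fold. ERAP2, at -1.62, is the only gene beyond a dashed line, and TXNL1 and AKIRIN2 lie highest, at 0.61 and 0.60.

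The immunoproteasome was the lowest of the groups under all 8 alternative settings, with a median between -0.56 and -0.34, while the core lay between 0.01 and 0.11 and the cap between 0.01 and 0.10. The number of members with a lower signal ranged from 11 after centring on the median gene to 18 after quantile normalization.

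**Figure D5:**
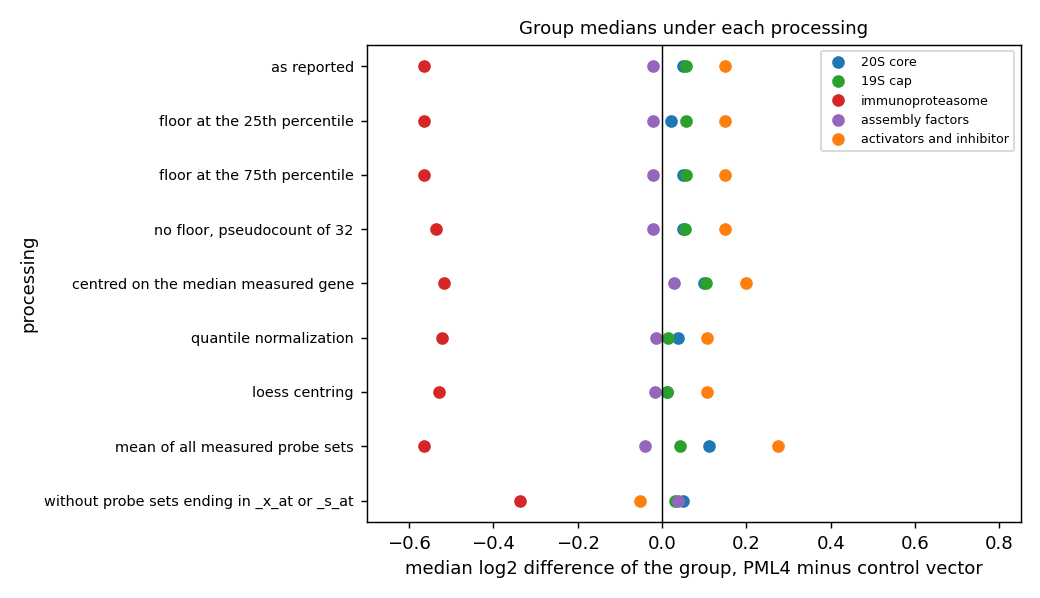
Median log2 difference of each proteasome group (x axis) under the reported processing and each alternative (y axis). The immunoproteasome median lies left of all others in each row, and the medians of the activators and of the assembly factors cross 0.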

How the data were processed

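Per the submitters' processing notes, the deposited values are MAS5 signal intensities, given without a version. Per the labels, 1-colour arrays were hybridised with biotin-labelled cRNA made from 6 µg of total RNA. Means of the deposited intensities, trimmed by 2% at each end, were 500.0 with the vector and 500.1 with PML4, so the authors' scaling was kept. Detection calls were not used here. Of 54613 human probe sets, 41091 had 1 gene in GEO's annotation of the array, 1801 had several and 11721 had no entry, and only those with 1 gene were named.

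Signals under the floor were set to the floor, log2 was taken, and the probe set of highest mean log2 signal stood for its gene. With 1 array per group, no test was run and no p-value is given. The pipeline was tested on simulated data. Members and lists were chosen with earlier results of these data known. Members were named when they differed by at least 1.5-fold, when they were among the 2 highest or 2 lowest of their group, or when they belonged to the immunoproteasome, assembly, activator, inhibitor or catalytic genes. A gap of more than 1 between their well measured probe sets also named them. Genes of the other lists were named at 1.5-fold, with the 2 brightest otherwise, and the further ones for their role. Promoter sequences came from RefSeq on GRCh38.p14. Python 3.11.15, pandas 2.3.3 and statsmodels 0.14.6 were used.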

Additional observations from a re-analysis of the deposited data

How the results depend on the processing

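The floor was moved to the 25th and to the 75th percentile or replaced by a pseudocount of 32. The scale was changed by median centring, by quantile normalization and by loess (span 0.4). Gene values were taken as means over probe sets, or without those whose names end in _x_at or _s_at. No group median and no catalytic pair moved by as much as 0.29, the gap between probe sets of 1 gene. No member passed 2-fold under any of these 8, and 1 member, PSMB9, passed 1.5-fold as reported. With the mean of probe sets 2 passed it, PSMB9 and PSME3, and 2 without names ending in _x_at or _s_at, PSMB1 and PSMB9. PSMB9 was the lowest member in 7 of them, but PSMB1 was lower, at -0.87, when names ending in _x_at or _s_at were dropped. Of single genes, PSMB4 moved to 0.49 and PSMD9 to -0.40 with the mean of probe sets, and AKIRIN2 to 0.31. Under the same restriction on names PSMG4 moved to -0.50 and ERAP1 to -1.82, and PSMA2 turned from -0.11 to 0.52. No replicate could be left out and no paired analysis was possible because each group holds 1 array. The number of arrays and, for dim probe sets, signal near the floor limit every value.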

Other observations

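The antisense transcript PSMB8-AS1, which is no member of the set and was chosen after its values were seen, was read by 2 dim probe sets. One was at 100.4 with the vector and 55.3 with PML4, and the other at 95.1 and 44.5. Both passed the floor of 72.4 through the vector array alone, which fixes their direction, so their bounds of at least 1.39-fold and at least 1.31-fold are no support for that of PSMB8. Over all human probe sets 51.9% lay above the floor with the vector and 48.1% with PML4.

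PSMC3IP, a meiotic recombination factor named for its binding to a cap ATPase, was at 1337.4 and 941.6 on one probe set and at 1109.2 and 769.6 on the other, while PSMC3 itself was at 2170.5 and 2191.8. PSME3IP1, a protein that binds the activator PSME3, was at 2171.6 and 2157.2 on its brightest probe set. Its others were at 1205.8 and 1160.5, at 1068.3 and 1075.7 and at 767.9 and 946.8. PSME3 itself was higher on all 4 of its own.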
